A study of Mus musculus with 4 samples.

Results

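The genes described here are targets of the tumour suppressor p53 and other genes that arrest growth, followed across 4 arrays of MC3T3-E1 cells, a mouse pre-osteoblast line derived from calvaria. A feature of the array was taken when its annotated symbol, or 1 of its several symbols, was on a list of 34 genes, and each gene was represented by its brightest feature over the 4 arrays. Of the 34, 31 were measured, among 21335 genes in all, and Trp53, Bax and Gdf15 were not analysed here. Of the 31, 29 reached the brightness floor used below on at least 1 array, while Pmaip1 and Perp lay under it on every array. Cells were grown in proliferation medium with 1% fetal bovine serum, and were left untreated or given the selective serotonin reuptake inhibitor (SSRI) citalopram at 100 µM (0.0001 mol per litre) for 3 or 7 days. The 4 groups were thus control at day 3, citalopram at day 3, control at day 7 and citalopram at day 7, with 1 array each, all from the same C57BL/6-derived line. The series compares treated with untreated cells, under a title that asks how citalopram exposure bears on osteogenesis. The labels describe 3 wells untreated and 3 treated, but do not say whether wells were pooled before hybridization.

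The transcription factor p53 is kept scarce by MDM2, a ubiquitin ligase that p53 itself induces, and accumulates when DNA is damaged or ribosome assembly, nutrients or oncogene control fail. It then switches on genes that halt the cell cycle (Cdkn1a, encoding p21), that aid DNA repair (Ddb2, Xpc, Polk, Rrm2b) or that start cell death (Bax, Bbc3, Fas). In cells of the bone lineage, p53 and the cyclin-dependent kinase inhibitors restrain the growth of precursors and take part in the balance between division and differentiation. Several genes in the group are not p53 targets alone: Gadd45a, Trp53inp1, Btg1, Ccng2 and Cdkn1b also answer to FOXO factors, stress signals or growth factor withdrawal.

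A p53 response element consists of 2 decamers that each fit a consensus of 10 bases, and the sequences below are shown because they hold such decamers just upstream of a start site. In RefSeq promoter windows of 300 bases (250 before to 50 after the start, assembly GRCm38.p6), 25 of the 34 genes had a window, and the consensus decamer was searched without mismatch; its consensus is palindromic, so a search of 1 strand covers both. An exact decamer occurred in the windows of 10 of these 25 genes, against 9.55% of all 27025 genes with a window. A pair of decamers with at most 1 mismatch in total and 0 to 13 bases between them, keeping the central C and G of each decamer, occurred in 2 genes, Cdkn1a and Ccng1, against 0.718% of all genes. The 250 bases before the start are printed 5′ to 3′ on the gene's strand, with the bases of a decamer in capitals.
Cdkn1a (chr17:29090729-29090978, plus strand, upstream of an annotated start): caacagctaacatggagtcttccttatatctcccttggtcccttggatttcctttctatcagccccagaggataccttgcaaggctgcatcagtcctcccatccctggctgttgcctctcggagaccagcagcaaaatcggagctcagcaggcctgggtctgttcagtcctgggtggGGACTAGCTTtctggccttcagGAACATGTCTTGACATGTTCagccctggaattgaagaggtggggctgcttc
Ccng1 (chr11:40755287-40755536, minus strand): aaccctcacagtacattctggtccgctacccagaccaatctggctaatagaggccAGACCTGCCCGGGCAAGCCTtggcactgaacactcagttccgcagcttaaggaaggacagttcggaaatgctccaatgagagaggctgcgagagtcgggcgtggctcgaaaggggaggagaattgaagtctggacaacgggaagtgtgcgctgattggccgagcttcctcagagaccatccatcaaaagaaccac
Mdm2 (chr10:117710759-117711008, minus strand): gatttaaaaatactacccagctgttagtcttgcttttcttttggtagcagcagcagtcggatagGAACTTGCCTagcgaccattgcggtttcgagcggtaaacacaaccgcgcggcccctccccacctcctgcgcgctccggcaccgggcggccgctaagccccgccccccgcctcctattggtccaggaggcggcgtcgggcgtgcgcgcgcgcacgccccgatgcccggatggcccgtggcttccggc
Gadd45a (chr6:67037408-67037657, minus strand): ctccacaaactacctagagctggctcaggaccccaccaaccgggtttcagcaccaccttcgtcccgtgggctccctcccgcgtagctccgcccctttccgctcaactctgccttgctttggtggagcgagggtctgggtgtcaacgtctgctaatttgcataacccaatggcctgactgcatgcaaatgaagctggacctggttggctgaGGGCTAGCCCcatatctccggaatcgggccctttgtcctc
The pair in Ccng1 reads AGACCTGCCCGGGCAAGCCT, with 0 bases between the decamers and 1 mismatch, and starts 195 bases before the start site. The Cdkn1a window holds 2 exact decamers, GGACTAGCTT from 73 bases before the start and GAACATGTCT from 51 bases before it, with 12 bases between them. The second of these also opens a pair with 0 bases between and 1 mismatch, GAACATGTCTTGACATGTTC. Mdm2 and Gadd45a hold 1 exact decamer each, GAACTTGCCT and GGGCTAGCCC. The other genes with an exact decamer were Aen, Ei24, Sesn1, Polk, Trp53 and Bax. These matches describe letters in a window and were not tested for p53 binding.

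Values are log2 expression as deposited, from 3.90 to 15.5, and a difference of 0.58 on this scale is 1.5-fold. The brightness floor was each array's 40th percentile over genes (5.97 to 6.04), and a comparison kept a gene if either of its arrays met it. With 1 array a group, a difference at a single day has no replicate check and its precision is unknown; as a yardstick, the central 95% of all genes above the floor lay between -0.33 and 0.40 for citalopram minus control at day 3 and between -0.44 and 0.42 at day 7. Over all features, Pearson's r between any pair of arrays was 0.986 to 0.995. Of 10 osteoblast lineage markers measured, 9 reached the floor, including Col1a1, Sparc and Prrx1, while Ibsp did not and Runx2 and Bglap were not analysed here. Alpl, counted among the 9, lay close to the floor on every array, between 5.93 and 6.09. Of the markers of other cell types, 0 of 4 endothelial, 1 of 4 macrophage, 1 of 4 adipocyte, 2 of 4 myogenic and 3 of 4 chondrocyte markers reached it. Among the chondrocyte markers, Sox9 lay between 10.5 and 11.01 and Col2a1 between 9.37 and 10.6, while Acan stayed under the floor, between 5.31 and 5.42. Their summed log2 level was 31.7 untreated and 32.5 treated on day 3, and 32.7 in both groups at day 7. The equal sums at day 7 hide opposite citalopram differences, 0.28 for Sox9 and -0.22 for Col2a1. The summed level of the osteoblast markers was 95.8 untreated and 97.7 treated on day 3, then 97.7 and 98.3. The part of either list in the differences below was not tested, and in bulk RNA fewer cells of a type and less RNA per cell cannot be told apart.

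At day 3, citalopram-treated and control cells differed little in these genes. Of 29 above the floor, 18 were higher with citalopram (57.7% of all genes were higher) and 11 lower (42.3%), with a median log2 difference of 0.07 against 0.03 over all 12361 genes. At a log2 difference of 0.32 or more, 2 were higher (5.01% of all genes) and 0 lower (2.6%), Ccng2 (-0.32) lying just short of it before rounding. None of the 29 was 1.5-fold higher (0.485% of all genes) or 1.5-fold lower (0.243%), and the highest was Plk2 at 0.46. At day 7, 22 of 28 were higher with citalopram (51.4% of all genes were higher) and 6 lower (48.6%), with a median of 0.18 against 0.01 over all 12341 genes. At a log2 difference of 0.32 or more, 8 were higher (5.83% of all genes) and 0 lower (5.95%). Gadd45a and Trp53inp1 were at least 1.5-fold higher (0.551% of all genes), none was 1.5-fold lower (0.916%), and the range ran from -0.29 for Ccng2 to 0.63 for Gadd45a. At day 7, 5 of the genes lay above the central 95% of all genes (Gadd45a, Trp53inp1, Zmat3, Polk and Btg2), and none lay below it; at day 3, Plk2 alone lay outside it. Of the 28 above the floor at both days, 15 were higher at both (31.2% of all genes) and 7 lower at day 3 and higher at day 7 (20.2%). The other 6 were those lower at day 7 (48.6% of all genes), 3 of them lower at both days and 3 higher at day 3. Separate shares of all genes were not worked out for these 3 and 3. The citalopram difference was larger at day 7 than at day 3 for 20 of the 28 (45.3% of all genes), by a median of 0.10 against -0.03. This change between days could not be tested, since no group has a replicate.

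**Figure D1:**
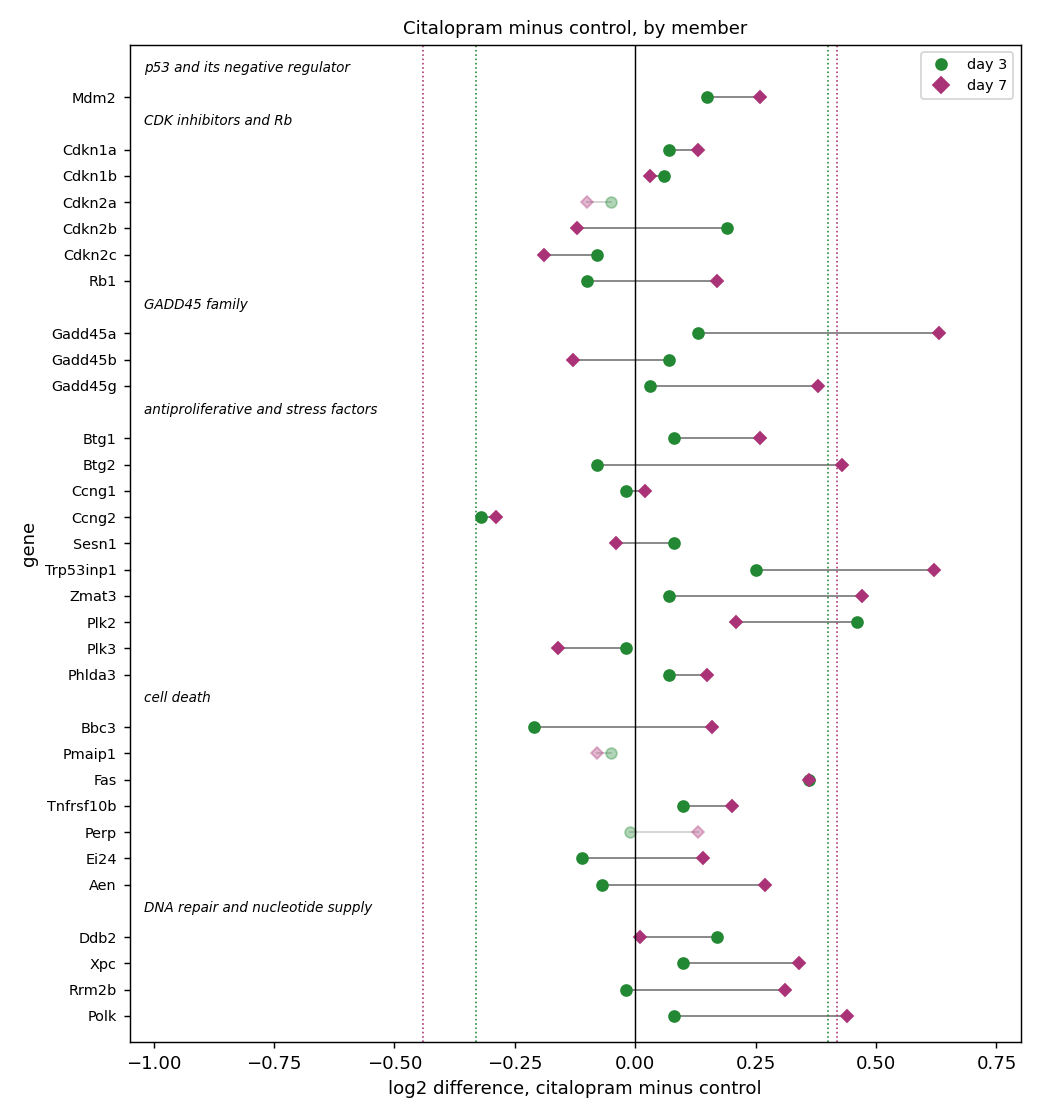
Log2 difference between citalopram and control (horizontal axis) for each of the 31 genes, at day 3 (circles) and day 7 (diamonds), 1 pair of arrays per symbol; dotted lines mark the central 95% of all genes at day 3 and day 7 in the colour of the symbols, and faint symbols are genes under the floor in either comparison. Gadd45a (0.63) and Trp53inp1 (0.62) lie furthest right at day 7, and Ccng2 is the lowest at both days (-0.32 and -0.29).

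Mdm2, the ligase that marks p53 for degradation and is itself a p53 target, was at 12.57 untreated and 12.73 treated on day 3, and at 12.44 and 12.69 at day 7. The citalopram arrays were thus both above the control arrays, by 0.15 and 0.26, and both differences lay within the central 95% of all genes. Cdkn1a encodes p21, the inhibitor of cyclin-dependent kinases through which p53 halts the cycle before S phase. Its only feature also carries the symbol 4930567H12Rik, so the value cannot be given to Cdkn1a alone. That feature was bright on every array, at 12.93 untreated and 13.00 treated on day 3 and at 13.04 and 13.17 at day 7, a difference of 0.07 and then 0.13. Both differences lay within the central 95% of all genes.

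The other inhibitors of cyclin-dependent kinases, and the retinoblastoma gene Rb1 whose product they keep active, differed little and in mixed directions. Cdkn1b, encoding p27, was at 10.53 untreated and 10.59 treated on day 3 and at 10.73 and 10.76 at day 7. Its dimmer feature differed more, by 0.16 at day 3 and 0.30 at day 7, so the features of this gene disagree in size though not in direction. Cdkn2c, encoding p18 of the INK4 family, was lower with citalopram by 0.08 at day 3 (10.34 and 10.27) and by 0.19 at day 7 (10.52 and 10.33). Cdkn2b, encoding p15, lay close to the floor, between 6.02 and 6.32, and Cdkn2a, the locus of p16 and of the MDM2 antagonist ARF, lay at or below it, between 5.90 and 6.00. No statement can rest on those last 2 genes at this brightness. Rb1 was at 10.08 untreated and 9.98 treated on day 3 and at 10.05 and 10.21 at day 7.

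The GADD45 genes encode small proteins that slow the cycle and activate stress kinases, and their 3 members differed in direction at day 7. Gadd45a, the classic p53 target of the family, was at 8.37 untreated and 8.50 treated on day 3, and at 8.47 and 9.09 at day 7. Its citalopram array at day 7 stood above the other 3, which spanned 8.37 to 8.50, and the difference there was 1.55-fold (0.63), rank 48 of 12341 genes. Gadd45g was at 9.34 and 9.37 at day 3 and at 9.61 and 9.99 at day 7, so that both day 7 arrays were above both day 3 arrays and the citalopram difference went from 0.03 to 0.38. Gadd45b, the member induced by TGF-beta and NF-kappaB signals, stayed between 11.07 and 11.22, with citalopram above control at day 3 (0.07) and below it at day 7 (-0.13).

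Among antiproliferative and stress-response factors, Trp53inp1 had the largest mean difference over both days. This gene encodes a p53-induced nuclear protein that promotes p53 phosphorylation and takes part in autophagy. It was at 11.80 untreated and 12.05 treated on day 3, and at 11.81 and 12.43 at day 7. The control arrays were nearly equal, both citalopram arrays lay above them, and the difference was 1.19-fold (0.25) and then 1.53-fold (0.62), rank 52 of 12341 genes at day 7. Zmat3, a zinc finger RNA-binding protein and p53 target, was at 10.48 and 10.55 at day 3 and at 10.72 and 11.19 at day 7, a difference of 0.07 and then 0.47. Plk2, a polo-like kinase that p53 induces, was at 10.07 and 10.53 at day 3 and at 10.36 and 10.57 at day 7. In Plk2 the lowest of the 4 arrays was the control at day 3, and its citalopram difference was larger at day 3 (0.46) than at day 7 (0.21). Plk3, a related kinase, was between 7.93 and 8.26 and slightly lower with citalopram, by 0.02 and 0.16.

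Ccng2, whose product is an atypical cyclin linked to cell cycle arrest, was at 8.27 untreated and 7.95 treated on day 3, and at 8.32 and 8.03 at day 7. Both citalopram arrays lay below both control arrays, with differences of -0.32 and -0.29. Its relative Ccng1, a p53 target whose promoter holds the decamer pair printed above, was between 13.79 and 13.87 on all 4 arrays and differed by -0.02 and 0.02. Btg2, an antiproliferative p53 target, was at 9.60 and 9.52 at day 3 and at 9.44 and 9.87 at day 7, a difference of -0.08 and then 0.43. Btg1, its paralog, differed by 0.08 and 0.26, Phlda3, an inhibitor of AKT signalling, by 0.07 and 0.15, and Sesn1, a sestrin that restrains mTOR signalling, by 0.08 and -0.04. At day 7, then, Btg2 and Btg1 were both higher with citalopram and only Btg2 lay outside the central 95%.

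**Figure D2:**
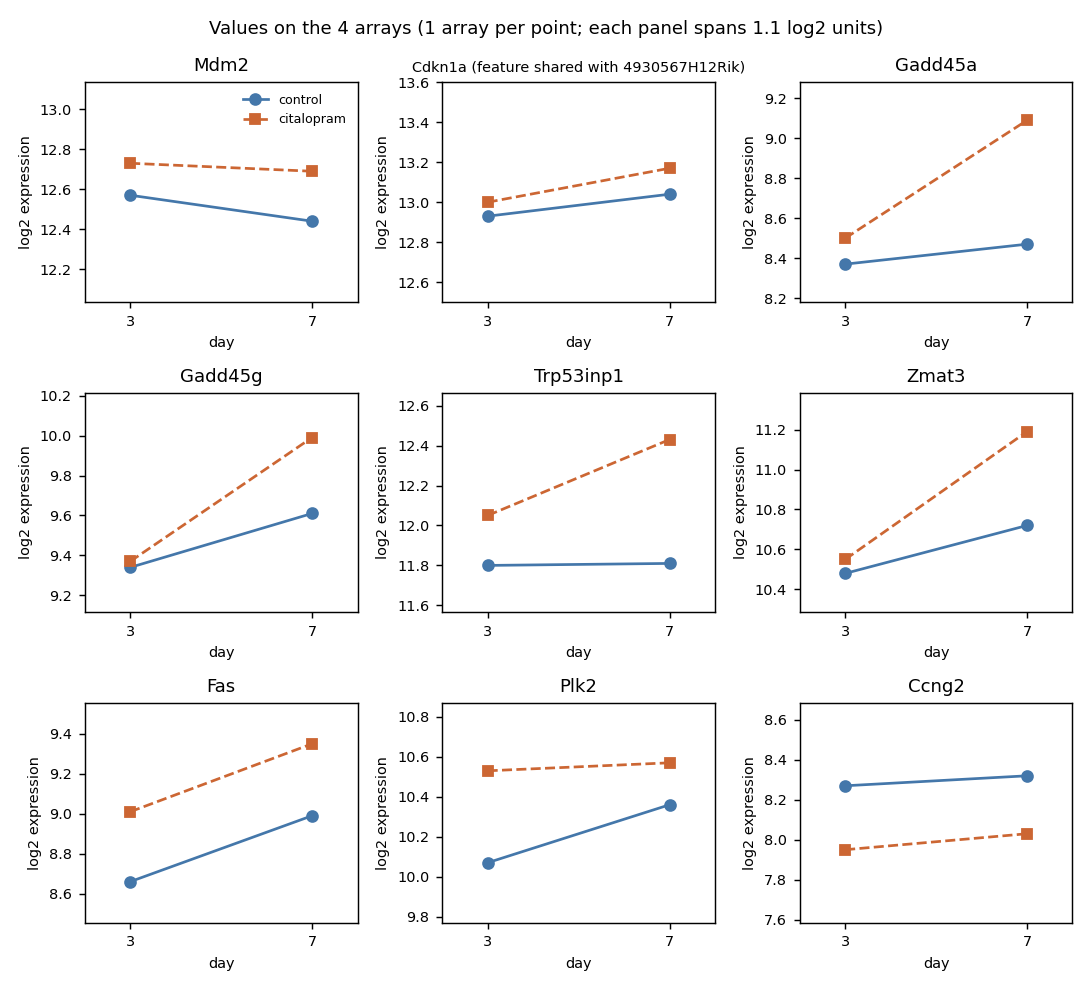
Log2 expression (vertical axis) on the 4 arrays by day (horizontal axis) for Mdm2, Cdkn1a and the genes past 1.5-fold or with a like difference at both days; circles are control, squares citalopram, 1 array each, and every panel spans the same range of log2 units. The lines run nearly parallel for Fas and Ccng2 and part at day 7 for Gadd45a, Trp53inp1, Gadd45g and Zmat3.

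The genes for cell death included 2 receptors. Fas, the death receptor for FAS ligand, was at 8.66 untreated and 9.01 treated on day 3, and at 8.99 and 9.35 at day 7. Citalopram was higher by 0.36 at both days, and the day difference was 0.34 in both treatments, so control at day 7 and citalopram at day 3 were level. Tnfrsf10b, the receptor for the ligand TRAIL, was at 11.21 and 11.32 at day 3 and at 11.24 and 11.44 at day 7. Aen, a p53-induced nuclease, was at 9.54 and 9.47 at day 3 and at 9.32 and 9.59 at day 7. Ei24, an endoplasmic reticulum protein first known as p53-induced, was at 12.33 and 12.21 at day 3 and at 11.83 and 11.97 at day 7. Bbc3, encoding the BH3-only protein PUMA, was between 6.77 and 7.07, with a difference of -0.21 and then 0.16. Of the 5 death genes that met the floor, 5 were higher in treated cells at day 7 (51.4% of all genes). Their day 7 differences ran from 0.14 to 0.36, all within the central 95% of all genes (-0.44 to 0.42). At day 3, 2 of the 5 were higher (57.7% of all genes). Pmaip1, encoding NOXA, lay between 5.41 and 5.60 and Perp, a desmosomal p53 target, between 4.99 and 5.16, below the floor throughout.

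All 4 genes of DNA repair and nucleotide supply were higher with citalopram at day 7 (51.4% of all genes), though Ddb2 by only 0.01. Their median difference was 0.33, against 0.01 over all genes. At day 3, 3 of 4 were higher (57.7% of all genes), with a median of 0.09 against 0.03. Polk, a DNA polymerase that copies past damaged bases, was at 9.95 untreated and 10.03 treated on day 3, and at 9.73 and 10.17 at day 7. Xpc, a sensor of nucleotide excision repair, was at 8.43 and 8.53 at day 3 and at 8.21 and 8.55 at day 7. Rrm2b, the p53-induced subunit of ribonucleotide reductase, was at 7.18 and 7.16 at day 3 and at 6.71 and 7.03 at day 7. In these 3 genes the control array at day 7 was the lowest of the 4, and the citalopram array at day 7 was within 0.14 of the one at day 3 in each. Ddb2, the damage-binding partner of Xpc, was at 7.18 in control at day 3 and between 7.34 and 7.35 on the other 3 arrays.

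Over both days, limma (additive terms for treatment and day, 1 residual degree of freedom, p-values adjusted by Benjamini-Hochberg over 12586 genes) called 0 of 29 of these genes for citalopram, and 0 genes in all (0% higher and 0% lower). With the unadjusted p below 0.05, 4 of the 29 were on the higher side (5.45% of all genes) and 1 was on the lower side (3.6%). The 4 were Trp53inp1 (mean log2 difference 0.43 ± 0.121, SE; limma's adjusted p 0.389), Fas (0.36 ± 0.103; 0.389), Plk2 (0.33 ± 0.112; 0.423) and Gadd45a (0.38 ± 0.134; 0.443). Ccng2 was the lower one (-0.31 ± 0.103; limma's adjusted p 0.423). Each of these 5 had the same direction at both days, which their selection by the mean over both days largely brings about. None passed the test after adjustment. In this fit days stand in for replicates, and nothing in the labels says that arrays came from separate experiments. Its 1 residual degree of freedom holds only how far a gene's citalopram difference departs between the days. Limma combined it with a variance pooled over all genes, which carried 7.41 degrees of freedom. Each SE and p-value thus rests mostly on that pooled variance and measures no spread between replicates of the gene.

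Between day 3 and day 7 of culture, untreated cells differed little in most of these genes. In control, 17 of 29 were higher at day 7 than at day 3 (47.7% of all genes) and 12 lower (52.2%), with a median of 0.03 against -0.01 over all genes, and none was 1.5-fold higher (1.23%) or lower (1.12%). A log2 difference of at least 0.32 was met by 1 gene upward (6.11% of all genes), Fas, and by 2 downward (7.4%), Ei24 and Rrm2b. With citalopram, 19 of 28 were higher (44.5% of all genes) and 9 lower (55.5%), 6 and 0 of them by at least 0.32 (8.66% and 13.4% of all genes), with a median of 0.12 against -0.03. Of these, 3 were at least 1.5-fold higher (2.09% of all genes) and 0 lower (2.77%): Zmat3 (0.64), Gadd45g (0.61) and Gadd45a (0.59), the last just inside the threshold and under it before rounding, between 0.55 and 0.58, after quantile normalization, cyclic loess or centring. In control the same genes differed by 0.24, 0.27 and 0.10. The lowest in control were Ei24 (-0.49) and Rrm2b (-0.47), which with citalopram stood at -0.24 and -0.14. These comparisons share arrays with those of citalopram against control, so their values are not independent of them.

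**Figure D3:**
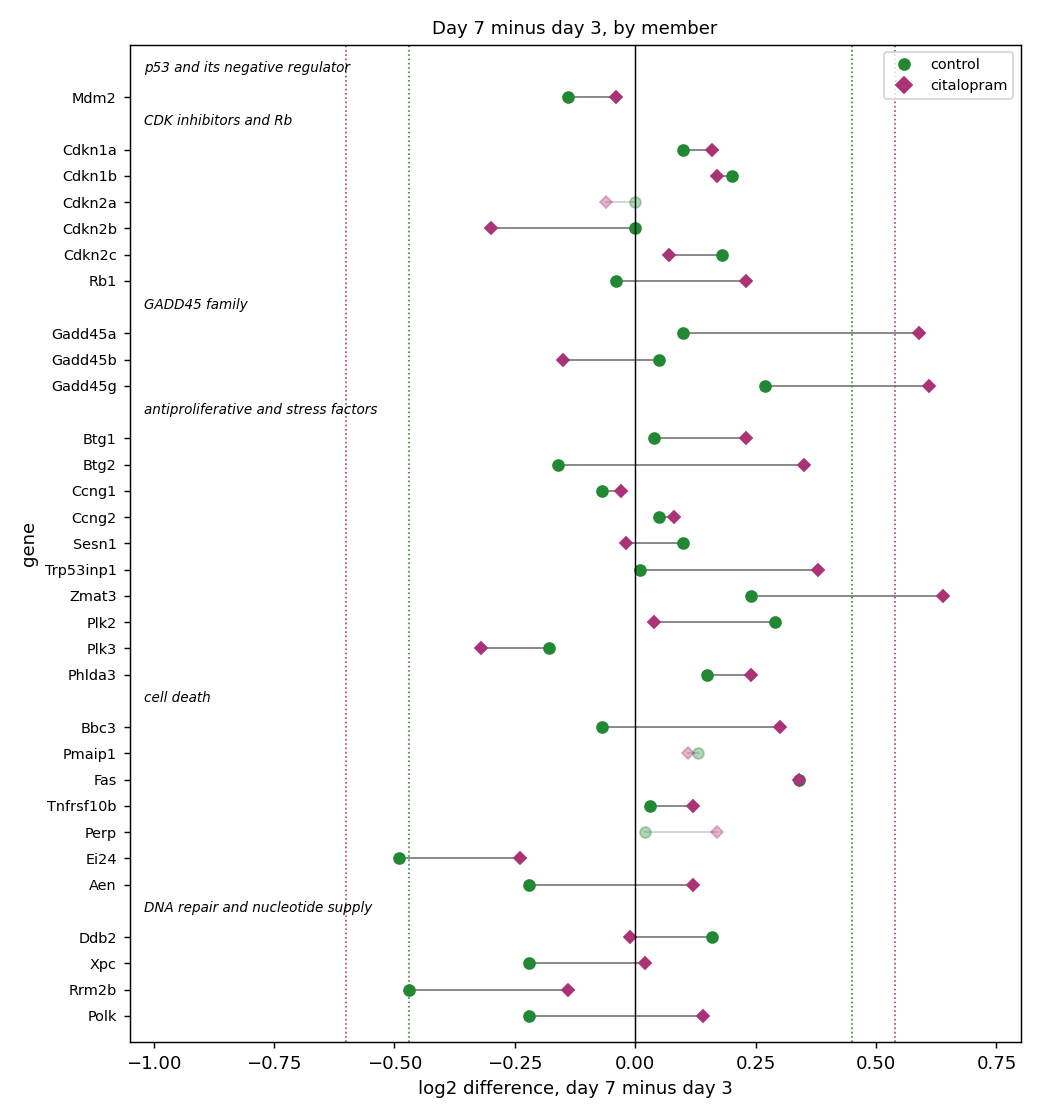
Log2 difference between day 7 and day 3 (horizontal axis) for each of the 31 genes, in control (circles) and with citalopram (diamonds), 1 pair of arrays per symbol; dotted lines mark the central 95% of all genes in each treatment, and faint symbols are genes under the floor in either comparison. Zmat3, Gadd45g and Gadd45a lie furthest right with citalopram (0.64, 0.61 and 0.59), and Ei24 and Rrm2b furthest left in control (-0.49 and -0.47).

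For the day effect over both treatments, limma called 0 of the 29 on the deposited values, where it called 1.5% of all genes higher and 1.68% as lower. With the unadjusted p below 0.05, 4 of the 29 were on the higher side (8.49% of all genes) and 3 on the lower side (11.9%). Gadd45g (mean difference 0.44 ± 0.119, SE; limma's adjusted p 0.0846) and Zmat3 (0.44 ± 0.124; 0.0934) came closest, ahead of Fas (0.34 ± 0.103; 0.114), Gadd45a (0.35 ± 0.134; 0.192), Ei24 (-0.37 ± 0.112; 0.111), Rrm2b (-0.30 ± 0.118; 0.195) and Plk3 (-0.25 ± 0.106; 0.231). These calls depended on scaling: limma called Zmat3 (adjusted p 0.00963) and Gadd45g (0.0136) higher and Rrm2b (0.0105), Ei24 (0.0366) and Plk3 (0.0475) lower after quantile normalization, and Gadd45g (0.0217) and Zmat3 (0.0252) after cyclic loess. Calls over all genes rose as well, from 401 as deposited to 1575 after quantile normalization and 1086 after cyclic loess. Their share of all genes was not worked out for these 2 scalings. Over all fits tried, limma's adjusted p ran from 0.00963 to 0.231 for Zmat3, 0.0136 to 0.191 for Gadd45g, 0.0105 to 0.292 for Rrm2b, 0.0366 to 0.165 for Ei24 and 0.0475 to 0.289 for Plk3.

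Other genes of the p53 pathway were taken from lists, and limma called 0 of their members for citalopram. Of 21 p53 regulators that met the floor, 13 were higher in treated cells at day 3 (57.7% of all genes; median 0.06) and 15 at day 7 (51.4%; median 0.10). Mdm4, the MDM2 relative that masks the p53 activation domain, was at 9.56 untreated and 9.83 treated on day 3 and at 9.95 and 10.31 at day 7. Trp53bp2, encoding the p53-binding protein ASPP2, was higher by 0.35 and 0.18. The checkpoint kinase gene Chek1 was lower by 0.25 at day 3 and by 0.40 at day 7 (9.79 and 9.54, then 9.38 and 8.98). Of 30 further p53 targets, 19 were higher at day 3 (57.7% of all genes; median 0.05) and 17 at day 7 (51.4%; median 0.04). Of these, 1, Trim7, a ubiquitin ligase gene, was past 1.5-fold at day 7 (0.64; 0.551% of all genes). Sesn2, a sestrin, differed by 0.00 and 0.49, and Ercc5, an excision repair nuclease, by 0.04 and 0.45. The further targets had a day 7 median close to that of all genes (0.01), below the 0.18 of the genes described above. Genes and lists were chosen with earlier results of these data known, so the choice may bear on this contrast.

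A mixed list held other inhibitors of cyclin-dependent kinases, pocket proteins, E2F factors, and G1 cyclins with their kinases. Of its 15 genes above the floor, 8 were lower with citalopram at day 3 (42.3% of all genes, median -0.02). At day 7, 11 of the 15 were lower (48.6%, median -0.19). Cdkn3, a phosphatase whose transcript peaks in dividing cells, was lower by 0.42 and 0.54, and cyclin E2 (Ccne2) by 0.28 and 0.53, while Cdk6, a G1 kinase gene, was higher by 0.39 and 0.26. Another list held 19 apoptosis genes above the floor: BCL2 family members, caspases, and Cycs, Diablo, Xiap, Fadd and Tnfrsf1a. Of the 19, 11 were higher at each day (57.7% and 51.4% of all genes) and none passed 1.5-fold. Bid, which links death receptors to mitochondria, differed by 0.37 and 0.05, Diablo by -0.15 and -0.22 and Bcl2l1, encoding BCL-XL, by 0.17 and 0.18. Of 19 proliferation genes, 17 were lower at day 3 (42.3% of all genes; median -0.19) and 19 at day 7 (48.6%; median -0.59), 11 of them past 1.5-fold at day 7 (0.916% of all genes). Bub1, a spindle checkpoint kinase, was lower by 0.38 and 0.80, Cdc25c, a phosphatase that admits cells to mitosis, by 0.41 and 0.69, and Birc5, encoding survivin, by 0.62 and 0.48. Limma gave 17 of the 19 as lower at an unadjusted p under 0.05 (3.6% of all genes) and 0 after adjustment over all genes.

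FOXO factors and their targets were higher with citalopram in 14 of 15 at day 3 (57.7% of all genes; median 0.16) and 12 of 15 at day 7 (51.4%; median 0.22). Limma gave 6 of the 15 as higher at an unadjusted p below 0.05 (5.45% of all genes) and 0 after adjustment. Bcl6, a transcriptional repressor, was higher by 0.16 and 0.71, Irs2, insulin receptor substrate 2, by 0.26 and 0.51, and Pik3ip1, a brake on PI3 kinase, by 0.15 and 0.46. Foxo3 was at 9.27 untreated and 9.52 treated on day 3 and at 9.44 and 9.79 at day 7. Of the genes named above as answering to FOXO factors or other signals, Gadd45a, Trp53inp1 and Btg1 were higher at both days. Ccng2 was lower at both (-0.32 and -0.29), and Cdkn1b differed by 0.06 and 0.03. Of 11 genes of the ATF4 and CHOP stress response, 7 were higher at day 3 (57.7% of all genes; median 0.08) and 9 at day 7 (51.4%; median 0.19), with 3 past 1.5-fold at day 7 (0.551% of all genes). Atf3 differed by 0.29 and 0.71, Nupr1 by -0.16 and 0.74, and Ddit3, encoding CHOP, by 0.08 and 0.40. The day 7 medians of the FOXO and ATF4 lists (0.22 and 0.19) stood beside 0.18 for the 28 genes described above and 0.04 for the further p53 targets. These lists, too, were chosen with earlier results of these data known. The part of the FOXO or ATF4 list in the differences of Gadd45a, Trp53inp1 and the others was not tested.

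**Figure D4:**
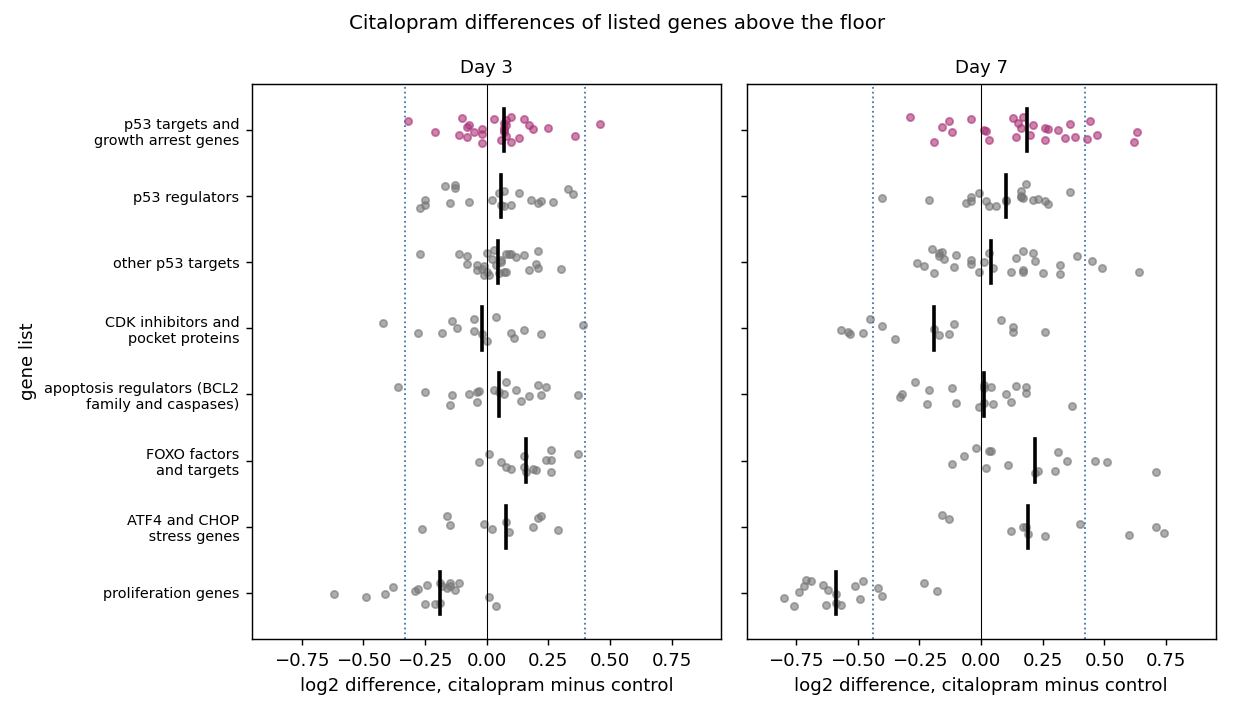
Log2 difference between citalopram and control (horizontal axis) at day 3 and day 7 for the genes above the floor in each list (rows); each point is 1 gene, black bars are list medians and dotted lines mark the central 95% of all genes. The p53 targets and growth arrest genes have medians of 0.07 and 0.18, the proliferation genes of -0.19 and -0.59.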

How the data were processed

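Expression was measured on whole-transcript Affymetrix arrays, 1 for each of 4 groups of MC3T3-E1 cells. The authors deposited log2 expression values, 1 per feature and array; Partek is named as the tool, per the submitters' processing notes, and base 2 was inferred from the values. How background, normalization and summarization were handled was not given in the sources used here, so a change shared by most transcripts may be hidden, or a shift between arrays kept, in every difference. Array medians ran from 6.50 to 6.66.

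Of 35556 features, 21789 carried 1 symbol in the platform annotation, 1621 several and 12146 none. Each gene took its brightest feature, and counts over all genes used each feature once (20216). Features with several symbols were kept, so Cdkn1a could be described; Cdkn1b alone had a second feature. Single pairs of arrays were subtracted without a test. The 12586 genes that met the floor on any array entered a two-sided fit with Benjamini-Hochberg adjustment (limma 3.58.1, functions lmFit and eBayes, R 4.3.3), which was tested on simulated data. Python 3.11.15 and pandas 2.3.3 did the rest. Genes and lists were chosen with earlier results of these data known. Values on every array were to be given for Trp53, Bax (neither analysed here), Mdm2, Cdkn1a, each gene past 1.5-fold in any comparison, and each with differences of at least 0.2 in 1 direction at both days, and for others where their role needs them; from each further list, the 3 genes with the largest mean citalopram difference are named, and Foxo3 was added after its values were seen. Alternatives changed the scaling (quantile, cyclic loess, median centring), the choice of features, the floor, the fold and the terms of the fit.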

Additional observations from a re-analysis of the deposited data

Results flagged for a closer look

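In 10 genes of 28 the citalopram difference had opposite signs at the 2 days, a contrast between single pairs of arrays that was not tested. Of these, 7 were lower and then higher, as were 20.2% of all genes, and 3 went the other way. The share of all genes was not worked out for the 3, nor for the 10 together. Of all genes, 57.7% were higher at day 3 but 31.2% at both days, so a change from higher to lower was common among all genes too. The 10 genes are thus not shown to be unusual. Btg2 had the largest change from day 3 to day 7, 0.51 (-0.08 and then 0.43). Bbc3 followed at 0.37 (-0.21 and 0.16), Aen at 0.34 (-0.07 and 0.27), Rrm2b at 0.33 (-0.02 and 0.31), Rb1 at 0.27 (-0.10 and 0.17) and Ei24 at 0.25 (-0.11 and 0.14). Ccng1 changed by 0.04, between values close to 0 (-0.02 and 0.02). The change ran the other way in Cdkn2b, by -0.30 (0.19 and -0.12, close to the floor), in Gadd45b, by -0.20 (0.07 and -0.13), and in Sesn1, by -0.12 (0.08 and -0.04).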

How the results depend on the processing

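The medians of the 4 comparisons stayed within 0.05 of their values, and the counts of genes higher by any amount within 1.5 times, under quantile normalization, cyclic loess, median centring, features with 1 symbol only, the mean of a gene's features and no floor. At a log2 difference of 0.32 in place of 0.58, the genes counted as higher with citalopram were 2 at day 3 and 8 at day 7; between days, 1 was higher and 2 lower in control, and 6 were higher with citalopram. Over all genes, limma called 131 genes for citalopram after quantile normalization and 42 after cyclic loess, against 0 as deposited, and 0 of the p53 targets and growth arrest genes in each. For the day effect it called 1575 genes after quantile normalization, 1086 after cyclic loess, 218 with no floor and 84 without a treatment term, against 401; among the p53 targets and growth arrest genes it called 5 after quantile normalization and 2 after cyclic loess, against 0. After quantile normalization and cyclic loess the day calls among these genes rose along with those over all genes. The share of all genes called was not worked out for these scalings, so the 5 and the 2 are not shown to exceed it. The cause of these shifts with scaling was not tested. The adjusted p over these fits ran from 0.093 to 1 for Trp53inp1 and from 0.183 to 1 for Gadd45a (citalopram). The additive fit compares treatments within days; beyond it, no paired analysis was possible because each group holds 1 array. No array can be left out of the additive fit, which has 1 residual degree of freedom. With 1 array a group, the precision of single differences is unknown; Cdkn2a, Cdkn2b, Pmaip1 and Perp lie near or under the floor.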
